A study of Arabidopsis thaliana with 6 samples.

Results

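The genes described are 10 Arabidopsis thaliana genes for the wall and the integrity of the pollen tube, of 37336 genes in the deposited table. They were listed by gene ID and not by a cut on a measured value, but earlier results of these data were known when they were chosen. They are the pectin methylesterases VGD1 (AT2G47040), VGDH1 (AT2G47030), VGDH2 (AT3G62170), PPME1 (AT1G69940) and PME48 (AT5G07410), the arabinogalactan proteins AGP6 (AT5G14380) and AGP11 (AT3G01700), the receptor kinases ANX1 (AT3G04690) and ANX2 (AT5G28680), and RALF4 (AT1G28270), which encodes a secreted signal peptide. All 10 had reads in every library and all 10 passed the filter on low values.

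A pollen tube grows at its tip through the style and ovary and must stay intact until it reaches an ovule, where it bursts and frees the sperm cells. Its tip wall is rich in pectin, which pectin methylesterases stiffen or loosen by removing methyl groups, and arabinogalactan proteins are glycoproteins of the same surface. RALF4 and its close relative RALF19 bind the receptor kinases ANX1 and ANX2 with their partners BUPS1 and BUPS2, and this signalling keeps the growing tube from bursting. The 10 genes are known mainly from pollen grains and tubes.

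Polyadenylated RNA was sequenced from siliques, the fruits, of the eml1 eml3 double mutant (alleles eml1-2 and eml3-4) in 3 libraries and of the wild type (WT) in 3 libraries. Siliques had been self-pollinated and were taken 1 to 5 days later, so pollen, fruit wall and seeds were mixed in each. EML proteins are histone readers, which the series title ties to seed development without fertilization. Whether each library came from different plants is unstated, so every p-value reflects variation among these 6 samples and that variation may be technical. No plant accession is given for either genotype, so effects of strain background and of the mutations cannot be told apart. The labels do not describe what either allele does to its gene. EML3 (AT5G13020) stood at 190, 173 and 198 normalized reads in the eml1 eml3 libraries, against 2255, 2129 and 2718 in the WT libraries, while EML1 (AT3G12140) overlapped between them, at 1072 to 1236 against 1190 to 1365. Recovered depth was 26771227 to 39246167 reads per library. Over all tested genes the third replicate of each genotype stood apart, by Pearson's r of the log2 values. The r of eml1 eml3 replicate 3 with replicates 1 and 2 was 0.93 and 0.931, beside 0.979 between those 2. The r of WT replicate 3 with replicates 1 and 2 was 0.948 and 0.954, beside 0.973 between those 2. Carpel and fruit markers were present throughout, with SHP1 at 2047 to 2521 in eml1 eml3 and 3074 to 3522 in WT.

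Of the 10 pollen tube genes, 2 were called lower in the eml1 eml3 siliques and 8 did not pass the test. PPME1 fell 3.50-fold and VGDH2 fell 2.59-fold in eml1 eml3 relative to WT, both on the fitted scale. No member rose. The limma test ran on log2(normalized count + 1) over 21751 genes with a mean of at least 10, and p-values were adjusted by the Benjamini-Hochberg method, with calls made under 0.05. By that rule 3.1% of all tested genes were called lower in eml1 eml3 and 3.69% higher. The fitted difference was below 0 for 9 of the 10 members, beside 10803 of the 21751 tested genes. The members' median was -1.03 on the log2 scale, beside a median of 0.0032 over all tested genes. For 5 members, VGD1, VGDH2, PPME1, PME48 and AGP11, every eml1 eml3 library lay below every WT library, which also held for 12.8% of all tested genes. WT replicate 3 was the highest of the 6 libraries for all 10 members, and for 19.8% of all tested genes. In bulk tissue, fewer pollen grains or tubes and less RNA in each cannot be told apart.

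**Figure D1:**
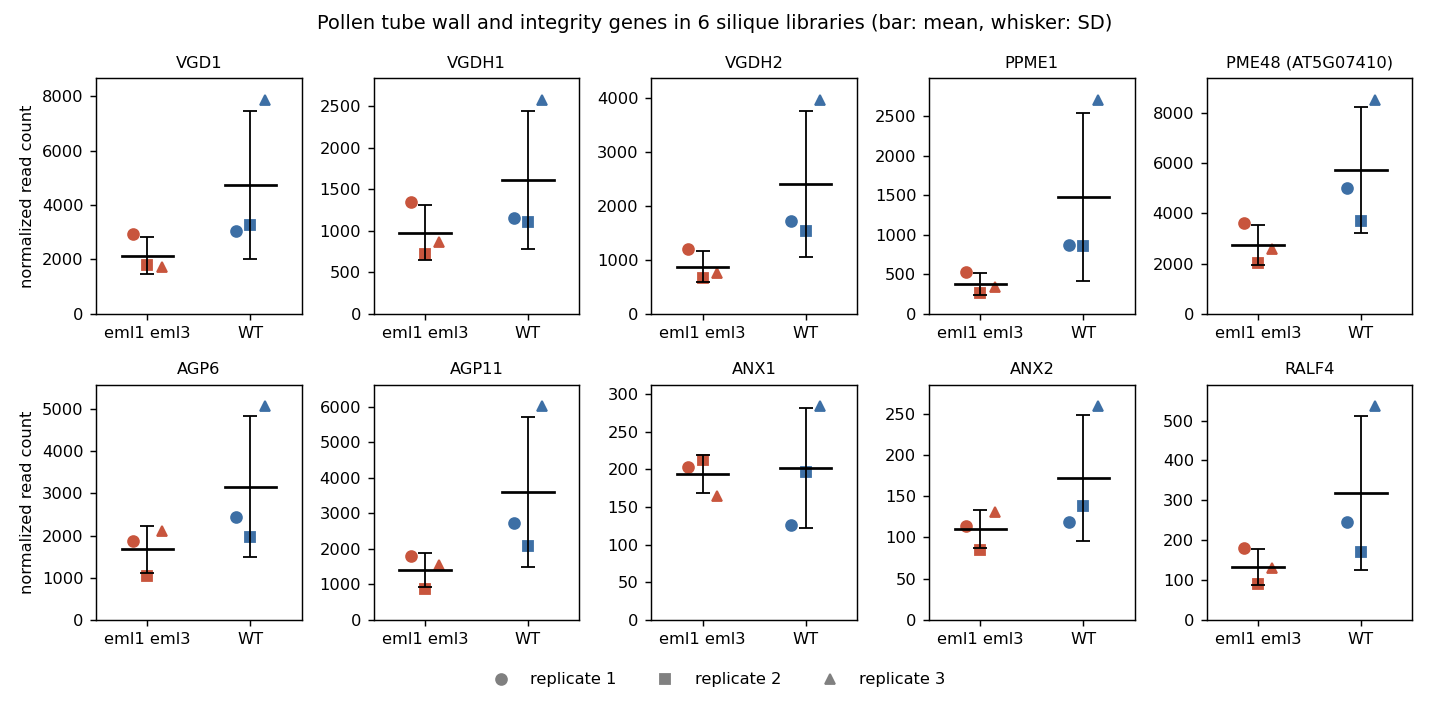
Normalized read count (y axis, linear, from 0) of each of the 10 genes in the 3 eml1 eml3 and 3 WT libraries, with symbols for the replicate number, bars for the mean and whiskers for the SD. WT replicate 3 is the top point in every panel, and the groups overlap for VGDH1, AGP6, ANX1, ANX2 and RALF4.

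The 3 VANGUARD genes encode pectin methylesterases, and VGD1 is the one whose loss is known to slow pollen tubes in the style. VGD1 had 2925, 1785 and 1712 normalized reads in eml1 eml3 replicates 1, 2 and 3, against 3060, 3257 and 7873 in WT replicates 1, 2 and 3. The mutant libraries were all lower than the WT libraries, but eml1 eml3 replicate 1 lay close to WT replicate 1. The fitted log2 difference was -1.04 ± 0.33 (SE), which did not pass (limma adjusted p = 0.089).

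VGDH1, its homolog and the neighbouring gene in the reference, had 1347, 714 and 858 normalized reads in eml1 eml3 replicates 1, 2 and 3, against 1152, 1105 and 2575 in the WT libraries in the same order. Here the groups overlapped, because eml1 eml3 replicate 1 lay above both WT replicate 1 and WT replicate 2. The log2 difference was -0.66 ± 0.32 (SE; limma adjusted p = 0.265). VGDH2, the more distant homolog, had 1196, 661 and 753 normalized reads in eml1 eml3, against 1719, 1528 and 3966 in WT. It was lower in each mutant library than in each WT library and was called lower, with a log2 difference of -1.37 ± 0.33 (SE; limma adjusted p = 0.0357). Its call was lost without eml1 eml3 replicate 2 (limma adjusted p = 0.127), without eml1 eml3 replicate 3 (0.055), without WT replicate 1 (0.0607) and without WT replicate 3 (0.0757).

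PPME1 encodes a pollen pectin methylesterase whose loss is known to give stunted, irregular tubes. It had 532, 260 and 338 normalized reads in eml1 eml3 replicates 1, 2 and 3, against 875, 854 and 2710 in WT. Its mean was 377 ± 140 in eml1 eml3 and 1480 ± 1066 in WT (SD, n = 3 each), so the mutant mean was 25.5% of the WT mean, the lowest share among the 10 members. The log2 difference was -1.81 ± 0.41 (SE; limma adjusted p = 0.0276). This call was lost without WT replicate 3 (limma adjusted p = 0.0506) and without eml1 eml3 replicate 2 (0.0989). Against WT replicates 1 and 2 alone, the log2 difference was -1.26.

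PME48, the closest relative of PPME1, acts in pollen grain imbibition and germination. It had 3605, 2038 and 2599 normalized reads in eml1 eml3, against 5021, 3679 and 8535 in WT. The groups did not overlap, but the gap between eml1 eml3 replicate 1 and WT replicate 2 was small. With a log2 difference of -1.01 ± 0.28 (SE), it did not pass (limma adjusted p = 0.0594). PME48 had the most reads of the 5 enzymes in every library, and took 37.5%, 37.3% and 41.5% of their summed normalized reads in the eml1 eml3 libraries, against 42.5%, 35.3% and 33.3% in the WT libraries.

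The ratios within pairs of related genes were set apart between the genotypes for 3 of 4 pairs. The log2 ratio of PPME1 to PME48 was -2.76, -2.97 and -2.94 in eml1 eml3 replicates 1, 2 and 3, against -2.52, -2.11 and -1.66 in WT, so PPME1 made up a smaller part of the pair in every mutant library. The ratio of VGD1 to VGDH1 was also lower in each mutant library, at 1.12, 1.32 and 1.00 on the log2 scale, against 1.41, 1.56 and 1.61 in WT. In the arabinogalactan pair the ratio of AGP6 to AGP11 was higher in each mutant library, at 0.076, 0.24 and 0.44, against -0.16, -0.063 and -0.24 in WT. Only the ratio of ANX1 to ANX2 overlapped between genotypes, at 0.84, 1.32 and 0.33 in eml1 eml3 and 0.079, 0.50 and 0.13 in WT. In a two-sided exact permutation test over the 3 and 3 libraries, the first 3 ratios had p = 0.1, the smallest value this design allows, and the ANX ratio had p = 0.2. Adjusted over the 4 pairs these were 0.133 for the first 3 and 0.2 for the last, so none could pass a threshold of 0.05.

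The members of a pair share sequence, which limits how far reads can be assigned to one of them. In the TAIR10.1 transcripts, PPME1 and PME48 were identical at 95% of 1196 aligned bases, with a longest run of 89 identical bases. VGD1 and VGDH1 were identical at 89.4% of 1935 aligned bases, with a longest run of 74. The other pairs were further apart, at 80.7% for ANX1 and ANX2 and 68.5% for AGP6 and AGP11, with longest runs of 29 and 17 bases. The sources used here do not say how reads that match both genes were counted, so the split within the first 2 pairs is uncertain, and the sum of a pair depends on it less.

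**Figure D2:**
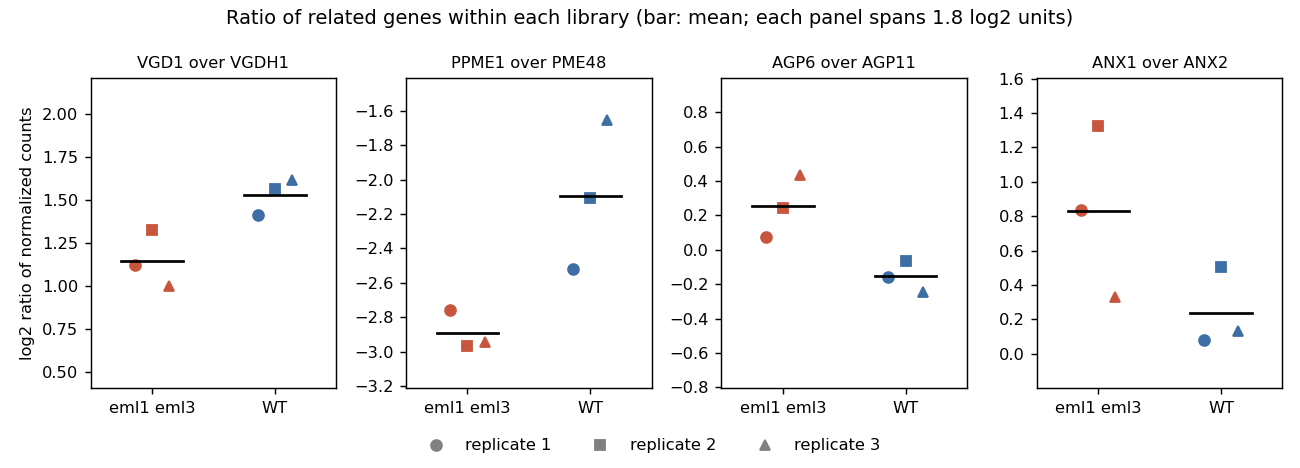
Log2 ratio of the normalized read counts of 2 related genes (y axis; each panel spans the same 1.8 log2 units) in each eml1 eml3 and WT library, with bars for the mean of 3. The groups are apart for VGD1 over VGDH1, PPME1 over PME48 and AGP6 over AGP11, and overlap for ANX1 over ANX2.

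Of 11 other pectin methylesterase genes reported from pollen, 10 were tested, with a median log2 difference of -1.02. Of the 10, 1 was called higher and 1 lower in eml1 eml3, beside 3.69% and 3.1% of all tested genes. AT3G17060 fell to 385 ± 151 in eml1 eml3, against 776 ± 182 in WT (SD, n = 3 each; limma adjusted p = 0.0429), a call that remained in 1 of 6 fits that left out 1 library. AT5G07420 and AT5G07430 follow PME48 in the reference and were, like the members, highest in WT replicate 3, at 582 and 3532. PME19 (AT1G11590) went the other way, at 914, 816 and 854 normalized reads in eml1 eml3, against 119, 101 and 108 in WT. It rose 7.82-fold (limma adjusted p = 1.16e-05), and WT replicate 3 did not stand apart for it. It has a near-identical copy, AT3G27980, with 96.4% identity over 306 bases, so its value is uncertain. The inhibitor gene PMEI1 stood at 129 ± 82.9 in eml1 eml3 and 329 ± 119 in WT (SD, n = 3 each), which did not pass (limma adjusted p = 0.0722), nor did PMEI2, at 22.6 and 34.8 (limma adjusted p = 0.735). Outside the members, 92 tested genes had a reference product name that holds pectin methylesterase or pectinesterase, which mixes enzymes and inhibitors. Of these 92, 9 were called higher and 12 lower, beside 3.69% and 3.1% of all tested genes. Among those called higher were AT1G14890, AT2G01610 and PME34 (AT3G49220), at 2540, 3185 and 18787 in eml1 eml3 against 1054, 1557 and 9908 in WT.

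AGP6 and AGP11 encode the main classical arabinogalactan proteins of pollen, and pollen that lacks both is known to grow poorly. AGP11 had 1784, 880 and 1556 normalized reads in eml1 eml3 replicates 1, 2 and 3, against 2717, 2065 and 6017 in WT. The groups did not overlap, and the log2 difference of -1.26 ± 0.36 (SE) missed the threshold (limma adjusted p = 0.0653). AGP6 had 1880, 1041 and 2107 in eml1 eml3, against 2437, 1977 and 5078 in WT. In eml1 eml3 replicate 3, AGP6 lay above WT replicate 2, so its groups overlapped. Its log2 difference was -0.86 ± 0.34 (SE; limma adjusted p = 0.17).

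The pollen arabinogalactan list held 4 further genes, of which 2 were tested and 2, FLA3 and FLA14, had 0 reads in all 6 libraries. FLA3 and FLA14 overlap genes on the opposite strand in the reference, by 1148 and 768 bases, so their counts of 0 are uncertain. Both tested genes were called lower, beside 3.1% of all tested genes. AGP40 (AT3G20865) had 202, 84.1 and 107 normalized reads in eml1 eml3, against 498, 467 and 718 in WT, and fell 4.48-fold (limma adjusted p = 0.00321). Its call remained in 6 of 6 fits that left out 1 library. AGP23 (AT3G57690) fell to 266 ± 54.9 in eml1 eml3, against 616 ± 171 in WT (SD, n = 3 each; limma adjusted p = 0.0161), and was not called without eml1 eml3 replicate 2, WT replicate 1 or WT replicate 3, where the limma adjusted p was at most 0.0693. Arabinogalactan proteins of other tissues, AGP1, AGP4, AGP9 and AGP18, had 1 call, AGP18, at 5016 ± 604 in eml1 eml3 and 3218 ± 366 in WT (SD, n = 3 each; limma adjusted p = 0.0159). That rise was lost without eml1 eml3 replicate 1 or WT replicate 2, where the limma adjusted p was at most 0.0878.

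RALF4 is the ligand of the integrity pathway. It had 179, 90.1 and 130 normalized reads in eml1 eml3 replicates 1, 2 and 3, against 246, 170 and 537 in WT. The highest mutant library lay above the lowest WT library, so the groups overlapped. Limma gave a log2 difference of -1.13 ± 0.41 (SE), which did not pass (limma adjusted p = 0.135). The authors' deposited table called 3 of the 10 members lower, RALF4 (log2 fold change -1.25, adjusted p = 0.0201), PPME1 (-1.97, adjusted p = 0.0221) and VGDH2 (-1.47, adjusted p = 0.043). It called lower 4.52% of the genes that had an adjusted p. Of 21 tested genes with a RALF symbol other than RALF4, 2 were called lower and 1 higher, beside 3.1% and 3.69% of tested genes. RALFL25 (AT3G25165) fell to 80.3 ± 40.7 in eml1 eml3, against 267 ± 63.1 in WT (limma adjusted p = 0.0211), and RALFL9 (AT1G61566) to 67.5 ± 11.8 against 192 ± 53.1 in WT (limma adjusted p = 0.0203; SD, n = 3 each). RALFL34 (AT5G67070) rose to 3362 ± 341 in eml1 eml3, against 2470 ± 159 in WT (limma adjusted p = 0.05). Each of the 3 calls was lost in at least 4 of 6 fits that left out 1 library, WT replicate 3 among them, and RALFL9 overlaps a gene on the opposite strand.

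The receptor genes had the lowest levels per kilobase of the 10. ANX1 had 203, 213 and 165 normalized reads in eml1 eml3 replicates 1, 2 and 3, against 126, 196 and 284 in WT. Its lowest library and its highest library were both WT, and the log2 difference was 0.0078 ± 0.31 (SE; limma adjusted p = 0.993). ANX1 overlaps AT3G04700 and TPR10 (AT3G04710) on the opposite strand in the reference, each by 278 bases. TPR10 had 571 to 645 normalized reads in eml1 eml3 and 461 to 571 in WT, and the library protocol describes no step that marks the strand, so the ANX1 count is uncertain. ANX2 had 114, 85.1 and 131 in eml1 eml3, against 119, 138 and 259 in WT. The groups overlapped, and the log2 difference was -0.58 ± 0.35 (SE; limma adjusted p = 0.373). Its lowest count, 84 reads in eml1 eml3 replicate 2, has an exact 95% Poisson interval of 67.0 to 104.0 reads, for counting error only.

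Of 14 partner genes of this signalling, 12 were tested and 0 were called in either direction in limma or edgeR. At an unadjusted p under 0.05 there were 5 of the 12, beside 21.5% of all tested genes, and DESeq2 on the recovered reads called 1 lower. The fitted difference was below 0 for 11 of the 12, beside 10803 of 21751 tested genes, with a median of -0.76 on the log2 scale. Every mutant library lay below every WT library for 4 of the 12, beside 12.8% of all tested genes. BUPS1 (AT4G39110), a receptor partner of the ANX kinases, had 417, 268 and 291 normalized reads in eml1 eml3, against 402, 388 and 923 in WT. RALFL19 (AT2G33775), the RALF19 ligand gene, had 376, 204 and 276 in eml1 eml3, against 425, 377 and 592 in WT. The leucine-rich repeat extensins LRX8 to LRX11 bind RALF peptides in the wall. Among them LRX10 (AT2G15880) stood at 1454 ± 637 in eml1 eml3 and 3539 ± 2125 in WT (limma adjusted p = 0.0824), and LRX9 (AT1G49490) at 1125 ± 298 and 2225 ± 1091 (SD, n = 3 each; limma adjusted p = 0.0975). Both were at their highest in WT replicate 3. That library was the highest for 7 of the 12 partners, beside 19.8% of all tested genes. LLG2, a co-receptor gene, was not among these 7. LLG2 was highest in WT replicate 1, at 4446, with 2036, 1839 and 2633 in eml1 eml3 and 2793 and 2569 in WT replicates 2 and 3. The phosphatase genes TOPP8 and TOPP9, which are used widely outside pollen, stood at log2 differences of -0.0048 and 0.21.

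**Figure D3:**
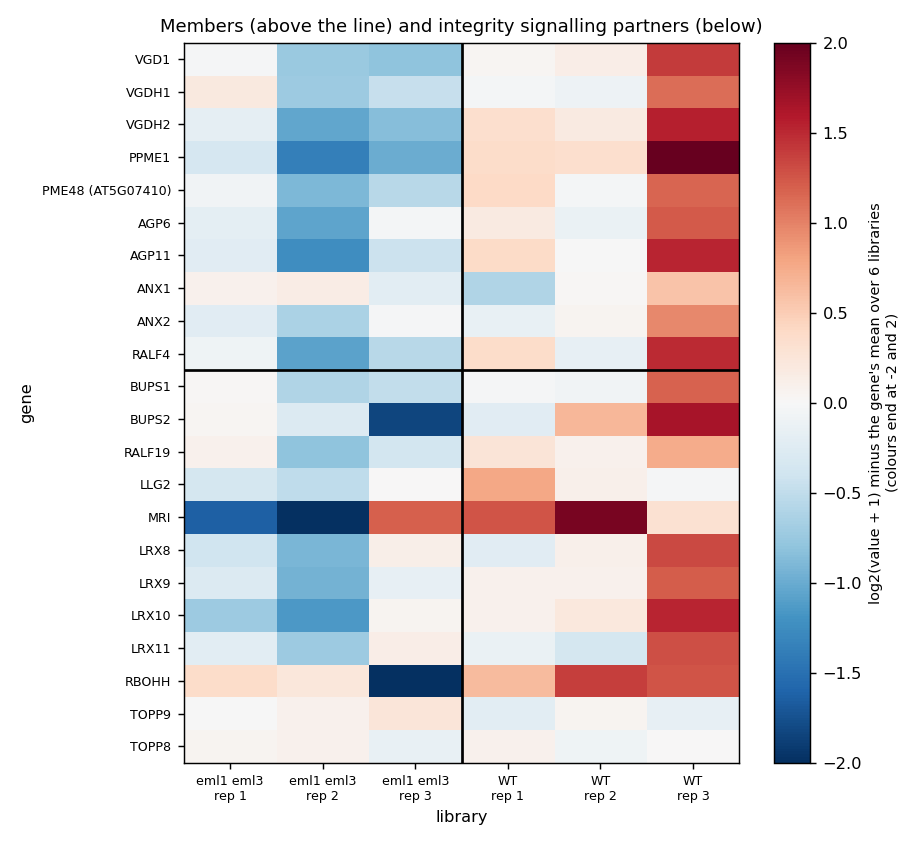
Log2(normalized count + 1) minus the gene's mean over the 6 libraries (colour, ending at -2 and 2) for the 10 members above the line and 12 tested signalling partners below it, with eml1 eml3 libraries on the left and WT on the right. The column of WT replicate 3 is the highest for all 10 members and for 7 of the 12 partners, and eml1 eml3 replicate 2 is the lowest for 8 members.

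Of 13 relatives of ANX1 and ANX2 that act outside pollen, the CrRLK1L kinases with FERONIA, THESEUS1 and HERKULES1 among them, 12 were tested and 0 were called in limma, edgeR or DESeq2. An unadjusted p under 0.05 was found for 3 of the 12, near the share over all tested genes, 21.5%. Their median log2 difference was 0.18, on the other side of 0 from that of the members. AT5G59700 had the smallest p among those below 0, at 403 in eml1 eml3 and 549 in WT (limma adjusted p = 0.123), and AT5G38990 the smallest above it, at 1181 and 869 (limma adjusted p = 0.118). WT replicate 3 was the highest library for 0 of these 12 genes, beside 19.8% of all tested genes.

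Per kilobase of transcript, the members kept nearly the same order of level in each library. AGP11, PME48 and AGP6 took the top 3 places in all 6 libraries, followed by VGD1 in the fourth. AGP11 ran from 1169 to 7990 normalized reads per kilobase over the 6 libraries and PME48 from 1387 to 5810, so the order of these neighbours is within their spread, and PME48 was first in eml1 eml3 replicates 1 and 2 only. VGDH1, VGDH2 and PPME1 shared the next 3 places, with VGDH1 first among them in every mutant library and last among them in every WT library. RALF4 was eighth throughout, at 72.7 to 433 per kilobase, and ANX1 and ANX2 were last, at 33.0 to 74.6 and 27.1 to 82.6 per kilobase. All 10 members together made up 0.0432%, 0.0243% and 0.0307% of the normalized reads in eml1 eml3 replicates 1, 2 and 3, against 0.0546%, 0.0485% and 0.124% in WT.

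The distance between the genotypes was smaller without WT replicate 3. It held 1.77 times (ANX1) to 3.13 times (PPME1) the mean of WT replicates 1 and 2 for each member. Without it, 0 of the 10 members were called in limma, where 1.45% of all tested genes were called lower, and the median log2 difference of the members was -0.64. The fitted differences then ran from -1.26 for PPME1 to 0.29 for ANX1, the only one above 0. On the mutant side eml1 eml3 replicate 2 was the lowest library for 8 members, beside 16.0% of all tested genes, and without it 0 members were called as well, beside 1.16% of genes. Members called lower numbered 2 without eml1 eml3 replicate 1 (1.52% of tested genes), 1 without eml1 eml3 replicate 3 (6.49%), 1 without WT replicate 1 (1.38%) and 3 without WT replicate 2 (1.09%). The added member in the last of these was PME48. Without both libraries numbered 3, an alternative chosen after seeing the data, PPME1 alone was called (limma adjusted p = 0.0419), beside 6.59% of tested genes. With all 6 libraries, edgeR called PPME1 and VGDH2 (2.95% of genes), and edgeR with no filter on low values called 7 members (3.33%), all but VGDH1, ANX1 and ANX2. Limma called 0 members with no filter (0.455%) and 0 with a variance prior that allows for outlying genes (3.17%).

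**Figure D4:**
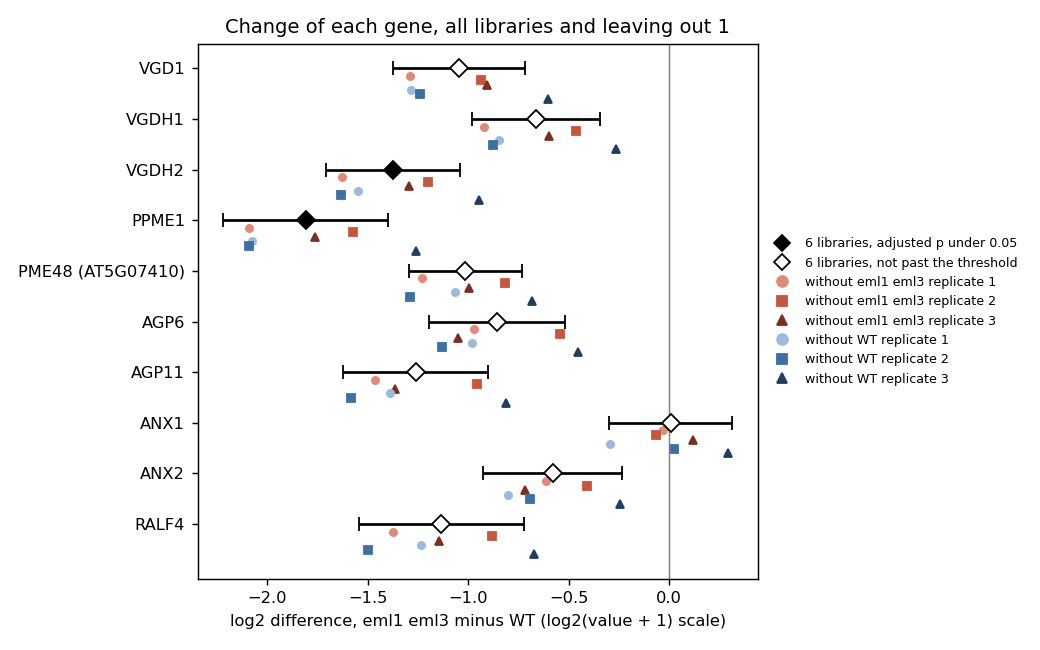
Log2 difference of eml1 eml3 minus WT (x axis, log2(value + 1) scale) for each member, with diamonds and SE whiskers for all 6 libraries (filled where the limma adjusted p is under 0.05) and small symbols for fits without 1 library. Leaving out WT replicate 3 gives the value nearest to 0 for 9 members, all but ANX1, which lies on both sides of 0.

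A wider list of pollen genes lay mostly below 0, with calls in both directions. Of 25 genes that mark pollen or the pollen tube, all tested, 4 were called lower and 1 higher in eml1 eml3. Over all tested genes these shares were 3.1% and 3.69%. The fitted difference was below 0 for 23 of the 25 and above 0 for 2, with a median of -0.98 on the log2 scale. Over all tested genes it was below 0 for 10803 of 21751. All mutant libraries lay below all WT libraries for 9 of the 25, beside 12.8% of all tested genes, and above them for 1. WT replicate 3 was the highest library for 23 of the 25, beside 19.8% of all tested genes. The summed level of the 25 was 6804 to 10077 in eml1 eml3 and 5820 to 9672 in WT. SUC1, the 1 gene called higher, made up most of that sum in every mutant library. It stood at 8150, 6662 and 5203 in eml1 eml3 replicates 1, 2 and 3, against 3180, 4027 and 4240 in WT. The sum therefore says little of the other genes in the list. SPIK (AT2G25600), a potassium channel of pollen, had 68.2, 46.6 and 41.6 normalized reads in eml1 eml3, against 171, 198 and 203 in WT. It fell 3.68-fold (limma adjusted p = 0.00662), and the call remained in 6 of 6 fits that left out 1 library. CPK34 (AT5G19360), a calcium-dependent kinase of the tube tip, fell to 31.3 ± 26.6 in eml1 eml3, against 193 ± 94.7 in WT (SD, n = 3 each; limma adjusted p = 0.0186). LIP2 (AT3G02810), a kinase for tube guidance, fell to 143 ± 50.9 in eml1 eml3, against 353 ± 108 in WT (SD, n = 3 each; limma adjusted p = 0.0409). MYB101, a regulator in pollen tubes, also fell (limma adjusted p = 0.0476). The sucrose carrier SUC1, also used outside pollen, rose to 6672 ± 1474 in eml1 eml3, against 3816 ± 561 in WT (SD, n = 3 each; limma adjusted p = 0.0213). CPK34 was not called in 3 of 6 fits that left out 1 library, LIP2 in 5, MYB101 in 5 and SUC1 in 4, and CPK34 overlaps a gene on the opposite strand by 79 bases.

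Markers of other floral cells moved with these results in part. The summed level of 8 tapetum and anther genes was 4.06, 6.08 and 58.0 normalized reads in eml1 eml3 and 8.38, 19.6 and 803 in WT replicates 1, 2 and 3. Almost all of the last value was GRP17 (AT5G07530), a pollen coat protein, at 3.25, 2.03 and 30.2 in eml1 eml3 and 1.68, 1.96 and 789 in WT. Of these 8 genes, 3 had 0 reads in all mutant libraries and 4 had 0 reads in all WT libraries. The 1 tested was GRP17, which did not pass (limma adjusted p = 0.753). Its log2 difference was -1.32 with all 6 libraries and 1.39 without WT replicate 3. The floral organ identity genes AP3, PI and AP1 summed to 2415 to 2691 in eml1 eml3 and 3728 to 5080 in WT. For each of the 3, every mutant library lay below every WT library, which held for 12.8% of all tested genes. AP3 fell to 1821 ± 133 in eml1 eml3, against 3310 ± 652 in WT (SD, n = 3 each; limma adjusted p = 0.0075), a call that remained in 6 of 6 fits that left out 1 library. Sperm genes were low throughout, summing to 61.7 to 93.2 in eml1 eml3 and 58.8 to 129 in WT. Most of that sum was GEX1 in every library, at 61.7, 83.0 and 56.7 in eml1 eml3 and 56.2, 35.3 and 86.8 in WT. The sum therefore says little of the other sperm genes. Of the 9, 3 were at 0 in all mutant libraries and 1 was at 0 in all WT libraries. Only GEX1 was tested (limma adjusted p = 0.796). What part any of these tissues has in the members' difference was not tested. Seed markers, with BAN and TT12 foremost, summed to 15989 to 16274 in eml1 eml3 and 14989 to 19400 in WT. Of the 6, 0 were called in limma, 0 in edgeR and 1 in DESeq2, and 1 had an unadjusted p under 0.05. The fitted difference was below 0 for all 6, beside 10803 of 21751 tested genes, with a median of -0.33 on the log2 scale. LEC1 had the smallest p, at 227 in eml1 eml3 and 532 in WT (limma adjusted p = 0.0551), followed by FUS3, at 87.2 in eml1 eml3 and 139 in WT (limma adjusted p = 0.403). In the carpel and fruit list 1 of 7 was called, SHP1, 1.45-fold lower (limma adjusted p = 0.0273), beside 3.1% of all tested genes called lower. That call remained in 1 of 6 fits that left out 1 library, and SHP1 overlaps other genes on the opposite strand. Among 3 listed synergid genes, LURE1.2 was the 1 tested and did not pass (limma adjusted p = 0.643). It has near-identical copies, LURE1.3 to LURE1.6, at 95.9% to 98.5% identity, so its value is uncertain.

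**Figure D5:**
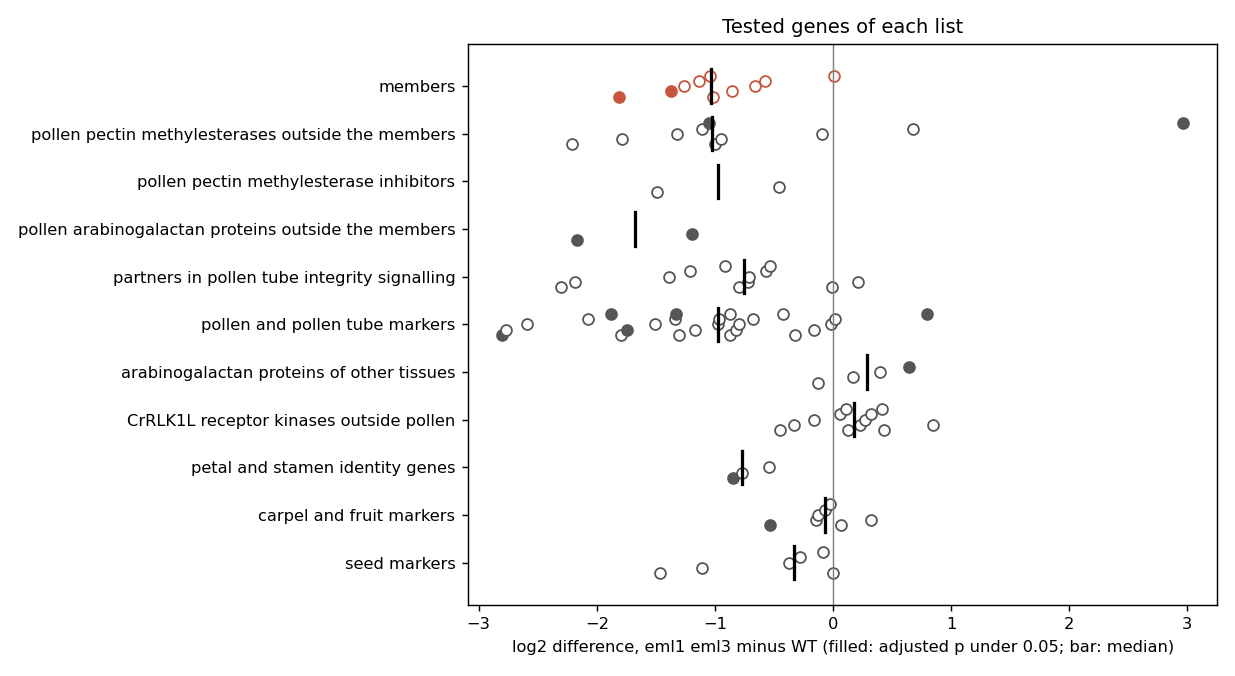
Log2 difference of eml1 eml3 minus WT (x axis) for every tested gene of the members and of 10 lists (rows), filled where the limma adjusted p is under 0.05, with a bar at each median. The members' median is -1.03 and that of the pollen markers -0.98, while the CrRLK1L kinases outside pollen and the arabinogalactan proteins of other tissues have medians of 0.18 and 0.29.

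The genes most like the members were searched for over all 18448 other genes with a mean of at least 50, by the Pearson correlation of the log2 values with the members' mean centred profile over the 6 libraries. The points share library and depth, and 115 genes had r above 0.95. The 8 highest were AT5G14230, AT3G07850, SVL4 (AT5G58050), AT3G28790, AT3G28780, ARF18 (AT3G61830), SERK5 (AT2G13800) and AT2G23900, with r of 0.986 to 0.992. AT3G07850 and AT2G23900 are annotated as pectin lyase-like proteins. AT3G07850 had 2927, 1490 and 1891 normalized reads in eml1 eml3, against 3865, 3513 and 8743 in WT, levels like those of PME48. It was the only one of the 8 past the threshold (limma adjusted p = 0.0446). AT3G28790 had 995, 500 and 784 in eml1 eml3, against 1122, 1258 and 5523 in WT. For ARF18 the same pattern was shallow, at 590 to 663 in eml1 eml3 and 648 to 780 in WT.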

How the data were processed

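The deposited matrix holds 1 normalized signal per gene and library, gene counts that the authors divided by 1 size factor per library by DESeq2, as the values show and per the file headers. DESeq2 is also in the submitters' processing notes, which name Trim Galore, STAR 2.5.2a, SAMtools, featureCounts and Subread, with no role or order. Strand setting, annotation, genome build and the handling of reads with several matches were not given in the sources used here. For that reason neither coordinates nor sequences are printed. All values (100%) were whole multiples of the smallest value above 0 to within 1e-06, so whole reads were recovered. Even numbers made up 69.3% to 73.9% of counts from 1 to 20, so reads may not have been counted singly, which was not tested, and the interval given covers counting error of single reads only. A second deposited table gives log2 fold changes, their standard errors, a test score and p-values, all as the authors computed them.

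The main test was limma 3.58.1 (R 4.3.3) with a variance trend, genotype as the only term, 2-sided, as described in the results. On simulated reads for this comparison it recovered 45 of 100 genes changed 2-fold and 92 of 100 changed 4-fold over 21703 genes, with 13 false calls. Those reads were drawn for each gene separately, with no library standing apart as WT replicate 3 did for the members. The recovery and the false calls may therefore differ for genes like the members. Alternatives were pseudocounts of 0.5 and 5, filters, scalings, a robust variance prior, a replicate block, leaving out libraries, edgeR 4.0.16 and DESeq2 1.42.0 on the recovered reads. Transcripts were compared with BLAST 2.17.0 (at least 150 aligned bases, and 95% identity for a near-identical copy), and symbols came from the TAIR10.1 reference table, which held 37051 of 37336 gene IDs, and from the authors' table.

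The members and the 13 gene lists were chosen with earlier results of these data known, and give no independent support to a direction. Named from each list were up to 4 called genes by smallest adjusted p, otherwise the 2 of smallest p, and the 8 genes most like the members. Other genes were named after their values were seen.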

Additional observations from a re-analysis of the deposited data

How the results depend on the processing

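Over 20 alternatives for each of the 10 members, 9 members stayed below 0 in eml1 eml3 under every one. ANX1, which was never called, changed sign under 7: its log2 difference was -0.055 after rescaling to one total, -0.059 in edgeR with its filter, -0.059 without it and -0.056 in DESeq2, and -0.29 to 0.29 over the fits that left out 1 library. Members called lower were 2 in limma as reported. There were 0 with no filter on low values, 5 with the replicate block in limma (2.47% of tested genes), 0 when the variance prior was robust, 7 in edgeR with no filter, 0 to 3 over the fits that left out 1 library and 1 without both libraries numbered 3. VGDH1, ANX1 and ANX2 were called in 0 of the 20. The cause of these moves was not tested. Same-numbered libraries did not deviate together (correlations of -0.079, -0.002 and -0.17 over all tested genes), so the numbers were not taken as pairs. With the block in edgeR 2 members were called (2.03%), AGP6 and AGP11, and not PPME1 or VGDH2. Of 109 listed genes, 86 were tested in limma as reported. That fit called 9 lower (3.1% of all tested genes). There were 0 lower with no filter (0.455%), 22 in edgeR with no filter (3.33%) and 17 in DESeq2 (4.52%). Over the fits that left out 1 library, 3 to 12 were called lower (1.09% to 6.49%). Those called higher were 3 (3.69%), with 1 when no filter was used (0.742%) and 1 to 3 over the fits that left out 1 library (1.47% to 5.18%). The ratios of the 4 pairs kept their direction in every alternative. A scaling by 1 factor per library, a filter or a variance prior leaves such a ratio unchanged or nearly so, and those alternatives could not turn these ratios. The smallest p for 3 against 3 libraries, 0.1, says nothing of their stability. The fewest reads in 1 library were 84 for ANX2 and 89 for RALF4, where counting error is the largest among the members.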
